A study of Mus musculus with 11 samples.

Results

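In CD4+ CD8+ thymocytes, 182 chromatin regions were called as acetylated on lysine 27 of histone H3 (H3K27ac) in every library of both genotypes, but over a much shorter length in the Rad21-deleted libraries. Merging all peaks that touched or overlapped in any of the 4 H3K27ac lists gave 24430 regions on the mouse build mm9. Of these, 12129 held a peak of all 4 libraries and are called shared regions. A shared region was counted as shrinking when the larger covered length of the Rad21-deleted libraries was below 0.7 times the smaller covered length of the wild-type libraries. The regions were thus selected on the covered lengths of the 4 libraries. This rule selected 182 of 12129 shared regions (1.50%), and the other 11947 shared regions are the comparison set below. Because those lengths chose the regions, the difference in covered length between the genotypes is described and not tested.

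Chromatin came from CD4+ CD8+ thymocytes, sorted from mice that were 6 weeks old. The Rad21-/- group (KO, 2 H3K27ac libraries) carried a floxed Rad21 allele that was deleted by a Cre transgene under Cd4 control, so deletion begins at or near the stage that was sorted. The wild-type group (WT, 2 H3K27ac libraries) came from control littermates, and the labels do not say which of the floxed allele and the Cre transgene these controls carried. The cohesin subunit Smc1a was mapped in 2 further WT libraries and in no KO library. Whether replicate libraries came from different mice is not stated in the labels, so the spread between them may be technical. Deposited peak lists hold neither reads nor genes, so neither the loss of Rad21 nor the cell type could be checked in them.

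H3K27ac marks nucleosomes beside active promoters and enhancers, and in cells with strong lineage-specific enhancers it can spread over long stretches that hold several enhancers. Cohesin is a ring-shaped complex that extrudes chromatin into loops and so brings enhancers and promoters of a neighbourhood together. Rad21 closes the ring and Smc1a is part of its frame. In CD4+ CD8+ thymocytes, long acetylated stretches are known at genes of T cell identity and of antigen receptor rearrangement.

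The KO lists held 19503 and 20244 peaks (replicates 1 and 2), and the WT lists 21973 and 15686 peaks. WT replicate 2 stood apart with the fewest peaks. Over the shared regions, called peaks covered 40.0 ± 2.89 Mb in KO and 42.0 ± 0.702 Mb in WT libraries (SD, n = 2 each). The KO minus WT difference of -2.00 Mb was smaller than the spread between the KO libraries (two-sided exact permutation test, p = 0.667, where 0.333 is the smallest p that 2 against 2 allow). The lists give no depth, so a stretch without a peak is a missing call and not a measured absence of acetylation.

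Shrinking was set against every other way to pair the 4 libraries. The reverse rule, with both WT libraries below 0.7 times both KO libraries, selected 84 regions (0.693%). Pairing KO replicate 2 with WT replicate 2 below the libraries of replicate 1 selected 101 regions (0.833%), and the reverse of that pairing selected 15 (0.124%). The pairing of KO replicate 2 with WT replicate 1 below the other pair gave 52 regions (0.429%), and its reverse 12 (0.0989%). The split by genotype in the direction of less KO coverage thus held the highest of the 6 counts. It was also the highest at a ratio of 0.6, with 88 regions against 34 in the next pairing, and at 0.8, with 411 against 290.

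**Figure D1:**
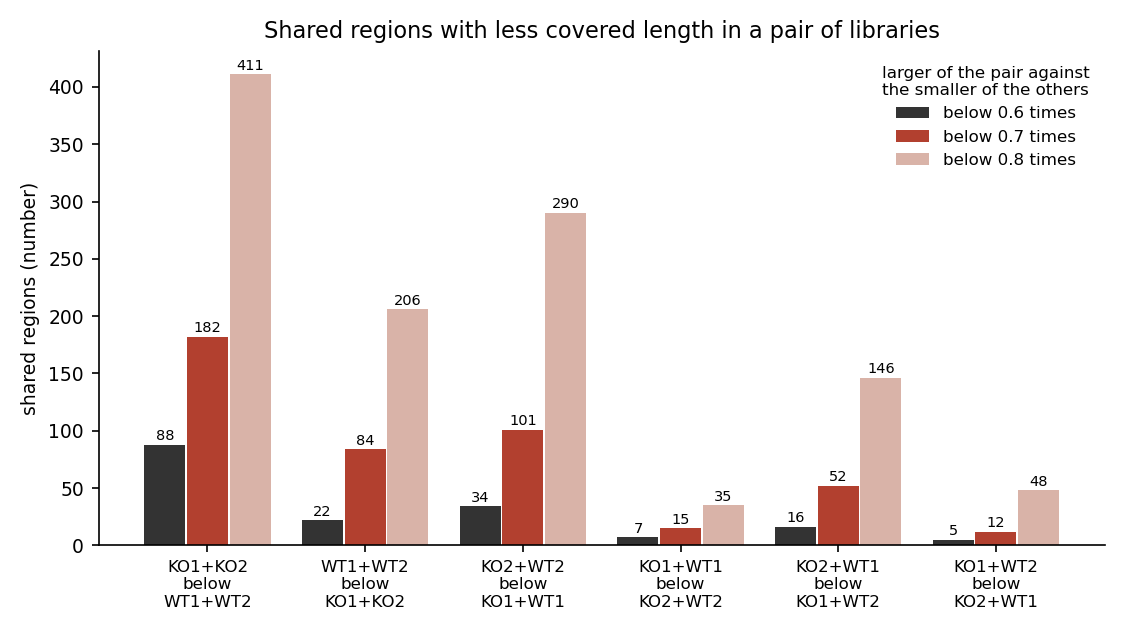
Number of shared regions (y axis) in which the larger covered length of the pair of libraries named first was below 0.6, 0.7 or 0.8 times the smaller covered length of the pair named second (x axis, 6 directed pairings of the 4 libraries). The pairing of both KO below both WT libraries has the tallest bar at each ratio, with 88, 182 and 411 regions.

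The excess lay in large differences. When regions were counted wherever the larger KO value was below the smaller WT value by any amount, there were 2783 (22.9%), against 2115 (17.4%) for the reverse and 2993 (24.7%) for the libraries of replicate 2 below those of replicate 1. With each library scaled to its total covered length, the rule gave 167 regions for KO below WT and 58 for the reverse, and the 4 crossed pairings gave 11 to 66. Of the 182 and the 167 regions, 134 were shared by both versions of the rule, which is 73.6% and 80.2% of each list. With only 3 lists to agree the count was larger, at 1159 regions without KO replicate 1, 355 without KO replicate 2, 359 without WT replicate 1 and 527 without WT replicate 2. The shared regions were redefined on the 3 lists each time, so these counts are not shares of the 12129 shared regions.

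Across the 182 regions, KO replicates 1 and 2 covered 451 and 371 kb, and WT replicates 1 and 2 covered 854 and 854 kb. The WT libraries were thus nearly equal, and both KO libraries were far below them. Per region, KO replicate 1 covered 415 to 8995 bp with a median of 1929.5 bp, and KO replicate 2 covered 581 to 8124 bp with a median of 1604.5 bp. WT replicate 1 covered 1269 to 15522 bp with a median of 3738.5 bp, and WT replicate 2 covered 1282 to 16386 bp with a median of 3620 bp. In the other shared regions the medians lay close together, at 2571 and 2315 bp in KO and 2500 and 2422 bp in WT libraries. KO replicate 2 was the shorter of the KO libraries in 138 of the 182 regions (75.8%), and also in 71.0% of the other shared regions, so this order is general to the library. WT replicate 2 was the shorter WT library in 92 (50.5%).

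**Figure D2:**
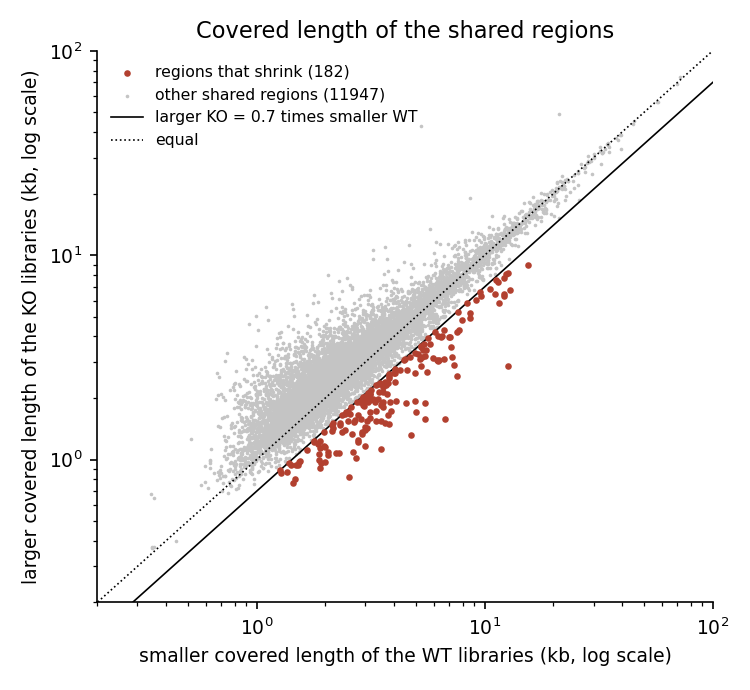
Larger covered length of the KO libraries (y axis, kb, log scale) against the smaller covered length of the WT libraries (x axis, kb, log scale) for the 12129 shared regions, with the 182 regions that shrink in red below the solid line at 0.7. Most of the longest shared regions lie near the dotted line of equal length, and the red points stop at a WT length of 15522 bp.

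The ratio of the larger KO to the smaller WT covered length had a median of 0.607 and a minimum of 0.227, and it was below 0.5 in 41 regions. In the other shared regions its median was 1.10. The threshold cuts a continuous range. Just inside it lay chr3:102573158-102574564 (ratio 0.6998), chr1:139565411-139568273 (0.6993) and chr19:34270813-34275768 (0.6991). Just outside it lay chr10:80064485-80071259 (0.7013), chr6:120904958-120909037 (0.7017) and chr5:149839679-149845443 (0.7017).

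Shrinking regions were longer than other shared regions in the median. Their median length was 4082.5 bp (1407 to 16386 bp), against 2904 bp in the other shared regions, which reach 78068 bp. The share of shared regions that shrank was 0.759% below 3000 bp, 1.91% from 3000 to 5000 bp, 2.93% from 5000 to 10000 bp and 2.83% at 10000 bp or more. No region longer than 16386 bp met the rule. These lengths include the WT peaks that the rule used.

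The peak lists name no genes, and no gene annotation of mm9 was used, so regions were not assigned to promoters, exons or introns. Where a locus is named below, the name comes from general knowledge of the mouse genome map, and it says only that the region lies in that gene or in its neighbourhood. The named loci were picked after the values were seen, and genes without a shrinking region are not listed. Whether shrinking regions lie more often at genes of T cell identity than at other genes was therefore not tested.

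The greatest difference was at chr6:8354925-8368140. KO replicates 1 and 2 covered 2862 and 828 bp of it, and WT replicates 1 and 2 covered 12597 and 12750 bp. The WT libraries agree within 153 bp there, while the KO libraries hold short islands. This region also had the lowest ratio of all (0.227), and a second shrinking region began 201 bp further on.

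At the Cux1 locus, which encodes a homeodomain transcription factor, 4 shrinking regions lay within chr5:136884335-137005414, among 7 shared regions in that span, which is bounded by the shrinking regions themselves. The longest was chr5:136898223-136914608. It was covered over 8995 and 3362 bp in KO and 15522 and 16386 bp in WT libraries. Its neighbour, chr5:136884335-136897849, was covered over 7721 and 6010 bp in KO and 12210 and 13298 bp in WT libraries. The region at chr5:136997644-137005414 had the second lowest ratio (0.236), with 1584 and 852 bp in KO and 7170 and 6709 bp in WT libraries. Over all 4 regions, KO libraries covered 19871 and 10953 bp and WT libraries 37772 and 39342 bp. The KO libraries differ from each other here by more than the WT libraries do, yet both lie below both WT values.

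In the neighbourhood of Rag1 and Rag2, which encode the recombinase that cuts antigen receptor genes, 3 successive shared regions shrank, within chr2:101412874-101443926, and 2 shared regions within 10000 bp of that span did not. The longest, chr2:101412874-101425783, was covered over 7560 and 4331 bp in KO and 11215 and 12910 bp in WT libraries. The middle region, chr2:101430510-101435667, had 1312 and 826 bp covered in KO libraries, against 4756 and 5158 bp in WT libraries. Its best peaks scored 65.23 and 55.39 in the KO lists, near their lowest score of 50, and 662.55 and 390.80 in the WT lists. None of the 3 regions held a reproducible Smc1a site, which is a merged stretch with a peak of both Smc1a replicates. The same was so for 116 of all 182 shrinking regions, while the 4 Cux1 regions held 1 site.

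Also at Myb, which encodes a transcription factor of blood progenitors and immature T cells, 3 successive shared regions within chr10:20849277-20870538 shrank, and 3 within 10000 bp of that span did not. KO libraries covered 8364 and 3017 bp of these regions and WT libraries 16193 and 14781 bp. At Satb1, which encodes a chromatin organiser of thymocytes, 3 successive shared regions within chr17:51901420-51932764 shrank, and 1 within 10000 bp of that span did not. There KO libraries covered 9066 and 6463 bp and WT libraries 18210 and 15525 bp. Neither stretch held a reproducible Smc1a site within its shrinking regions, as in most of the 182 shrinking regions. At Runx1, a transcription factor gene of T cell development, 2 shared regions within chr16:92709556-92731766 shrank, and 3 in or within 10000 bp of that span did not. KO libraries covered 3844 and 2713 bp of these regions and WT libraries 10432 and 13684 bp. Beside Tcf7, which encodes the T cell factor TCF-1, the region chr11:52109115-52117105 was covered over 4217 and 2150 bp in KO and 7972 and 7569 bp in WT libraries. The Tcf7 region held 2 reproducible Smc1a sites, and the shrinking regions at Runx1 held none. At all 4 of these loci both KO values lay below both WT values, as the rule requires of each region, and KO replicate 2 was the lower KO library.

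Shrinking was milder at Ppm1h, which encodes a protein phosphatase. Of the 6 shared regions within chr10:122086225-122181061, 2 shrank. The region chr10:122168912-122181061 was covered over 7182 and 7422 bp in KO and 11709 and 11430 bp in WT libraries. The region chr10:122086225-122092680 was covered over 3562 and 3082 bp in KO and 5280 and 6456 bp in WT libraries. The best peaks of both regions scored between 2418.76 and 3100 in the 4 lists, so strong peaks were also among the shorter ones. Each of these regions held 1 reproducible Smc1a site.

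The remaining groups of 3 neighbouring shrinking regions lay on chromosomes 4 and 6. Within chr4:102688585-102716809, KO libraries covered 8837 and 7221 bp of these regions and WT libraries 14588 and 16480 bp, and the regions held 3 reproducible Smc1a sites. Within chr6:8354925-8384056, which includes the region of greatest difference, KO libraries covered 8045 and 4512 bp and WT libraries 23089 and 24362 bp. The shrinking regions there held 2 reproducible Smc1a sites. The span also held 1 region called in both WT and in neither KO library.

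Other regions among the 10 with the greatest difference lay on chromosomes 1, 16, 11, 2 and 18. The region chr1:43534093-43547332 was covered over 5814 and 665 bp in KO and 12285 and 11553 bp in WT libraries. The KO libraries differ widely there, since KO replicate 2 kept a single short peak. The region chr16:55928160-55941885 was covered over 6725 and 5056 bp in KO and 12864 and 13519 bp in WT libraries. At chr1:165997452-166009971, KO libraries covered 6329 and 4417 bp and WT libraries 12520 and 12111 bp. At chr11:5134482-5147344, coverage was 6454 and 5201 bp in KO and 12634 and 12162 bp in WT libraries. In these 3 regions KO replicate 2 covered somewhat less than KO replicate 1.

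The region chr2:163439843-163452940 was covered over 4374 and 8124 bp in KO and 12709 and 12380 bp in WT libraries. It was the exception among the first 9, since KO replicate 1 was the shorter KO library. The region chr18:5356995-5366617 was covered over 2481 and 2555 bp in KO and 9057 and 7596 bp in WT libraries. The KO libraries were nearly equal there. Of the 10 regions, 5 held a reproducible Smc1a site and all 10 had another shared region within 10000 bp. These regions are long (9623 to 16386 bp). Of other shared regions of 10000 bp or more, 70.3% held a site and 71.0% had such a neighbour. For all shrinking regions of that length the shares were 62.5% and 93.8%. Together the 10 regions made up 16.7% of the summed WT minus KO difference of the 182 regions.

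**Figure D3:**
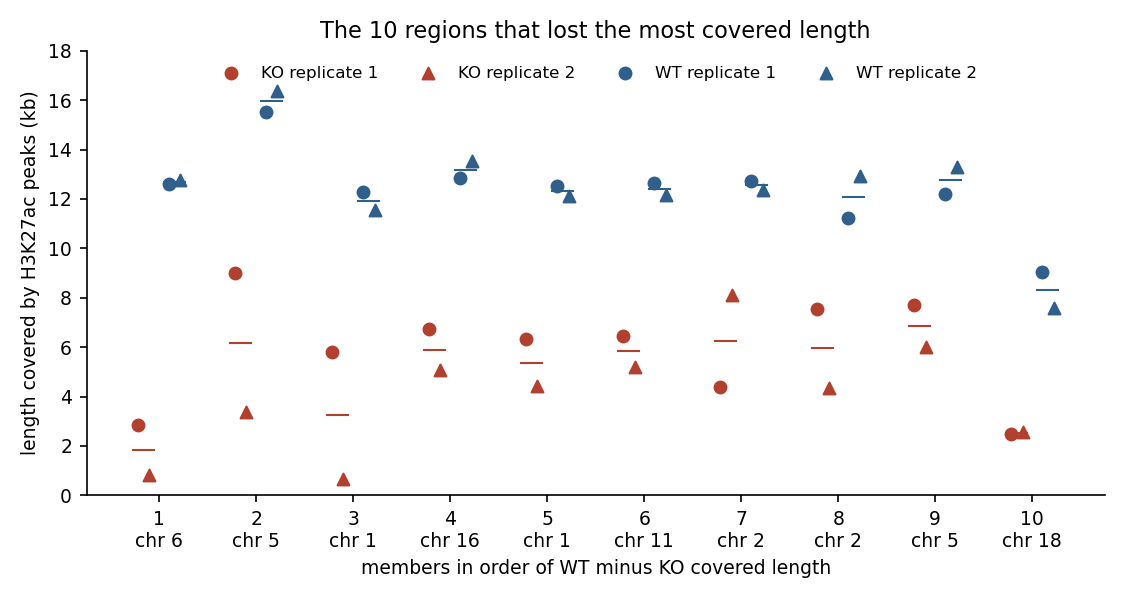
Length covered by H3K27ac peaks (y axis, kb) in each KO library (red) and each WT library (blue) at the 10 shrinking regions with the greatest WT minus KO difference in mean covered length (x axis, in that order, with the chromosome). Points are single libraries (circles replicate 1, triangles replicate 2) and horizontal lines are means of 2, and WT points lie above KO points in each region, as the rule requires.

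Among the 5 regions with the lowest ratios were also chr2:163483820-163489358 and chr1:43295134-43298802. The first was covered over 1581 and 1458 bp in KO and 5477 and 5539 bp in WT libraries, a ratio of 0.289. The second was covered over 1122 and 1064 bp in KO and 3498 and 3669 bp in WT libraries, a ratio of 0.321. In both regions the libraries of a genotype agree closely.

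Bases without a KO call lay mostly at the ends of the shrinking regions, as they did in other shared regions. Both WT libraries together covered 786 kb of the 182 regions, and 308 kb of this (39.2%) had no peak in either KO library. Of these bases, 272 kb (88.4%) lay outside the outermost KO peaks and 35.7 kb (11.6%) in gaps between KO peaks. In the other shared regions 83.7% of such bases lay at the ends. Bases at the ends outnumbered those inside in 168 of 182 shrinking regions (92.3%, Wilson 95% interval 87.5 to 95.4), against 3890 of the 4227 other shared regions with any such base (92.0%, 91.2 to 92.8), so this share is at the background. At least 90% of the bases without a KO peak lay at a single end in 90 of 182 shrinking regions (49.5%, 42.3 to 56.7), against 78.1% (76.9 to 79.4) of those other regions. The other regions lack far fewer bases, since the median was 1290.5 bp in the shrinking regions and 99 bp in the others. The longest Cux1 region was shortened from inside, since 6217 of its 6282 bases without a KO peak lay between KO peaks.

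A single peak made up the region in 163 and 159 of 182 regions in KO libraries, against 142 and 145 in WT libraries. The rule selected regions with short KO and long WT calls. These counts therefore cannot show whether acetylated stretches are more broken up in KO cells. In the other shared regions this share was 92.2% and 89.2% in KO and 91.3% and 93.5% in WT libraries.

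The scores of the peak caller, the authors' own values, moved with the lengths. The best KO peak of a shrinking region stood at the median percentile 43.4 and 39.4 of its list, and the best WT peak at 65.0 and 62.4. In the other shared regions these percentiles were 67.5 and 67.9 in KO and 70.8 and 59.3 in WT lists. Both KO scores were below both WT scores in 117 of 182 regions (64.3%), against 10.8% of the other shared regions. Scores come from the same libraries as the rule, so this is a description. The part of peaks near the caller's threshold in the shorter calls was not tested.

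Smc1a was mapped in libraries that the rule did not use. Its replicates shared 14848 reproducible sites over the genome. Of the shrinking regions, 66 of 182 held such a site (36.3%, Wilson 95% interval 29.6 to 43.5), against 2401 of 11947 other shared regions (20.1%, 19.4 to 20.8), a difference of 16.2 percentage points. The 84 regions that widen had a site in 14.3% of cases (8.37 to 23.3). The 101 regions lower in both libraries of replicate 2 had a site in 9.90% (5.47 to 17.3), and the 52 regions lower in KO replicate 2 and WT replicate 1 in 23.1% (13.7 to 36.1). The median lengths of these sets, in this order, were 3387.5, 3250 and 2917 bp, against 4082.5 bp in the shrinking regions. Their shares were not weighted for length. Regions are not replicates, so these intervals cover counting error only and no test was made over them.

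Both Smc1a libraries gave the same order. Peaks of Smc1a replicate 1 lay in 46.2% of shrinking and 33.6% of other shared regions, and peaks of replicate 2 in 49.5% and 24.6%. Longer regions held more sites, and shrinking regions were longer. With the other shared regions weighted to the lengths of the shrinking ones, their share was 27.4% and the difference 8.87 points. Below 3000 bp the shares were 16.7% and 10.6%, from 3000 to 5000 bp 28.4% and 19.6%, and from 5000 to 10000 bp 56.9% and 39.9%. At 10000 bp or more the order was reversed, with 10 of 16 shrinking regions (62.5%) and 70.3% of the others. The intervals of the classes separate only from 5000 to 10000 bp. The unweighted difference was 6.94 points without KO replicate 1, 9.99 without KO replicate 2, 14.8 without WT replicate 1 and 5.15 without WT replicate 2.

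**Figure D4:**
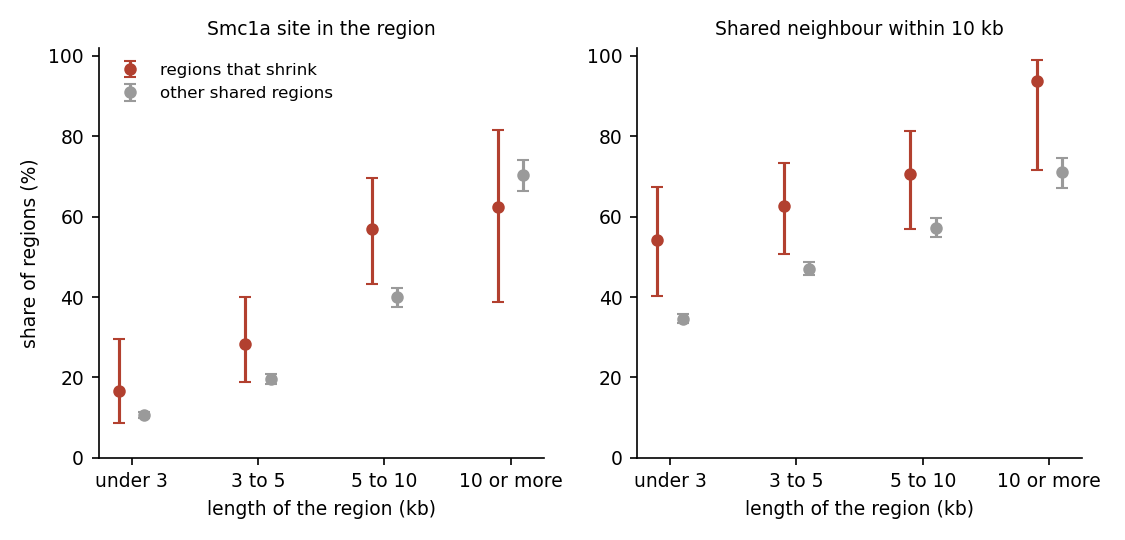
Share of regions (y axis, %) with a reproducible Smc1a site inside (left) or another shared region within 10 kb (right), for the 182 regions that shrink (red) and the 11947 other shared regions (grey), by length of the region (x axis, kb). Points are shares and bars Wilson 95% intervals, and red lies above grey in each band except for Smc1a sites at 10 kb or more.

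Within the shrinking regions, Smc1a sites lay mostly in the part that KO libraries kept. The midpoints of 79 sites fell in the 182 regions, of which 57 were in bases covered by both KO libraries, 16 in bases covered by both WT and neither KO library, and 6 elsewhere. The 2 kinds of bases were of similar extent (329 and 308 kb), which gives 17.3 sites per 100 kb of kept and 5.19 per 100 kb of lost bases. In the other shared regions the densities were 7.67 per 100 kb of kept and 2.82 per 100 kb of lost bases. Sites are thus denser in kept than in lost bases in both classes. Of the shrinking regions, 116 held no site, and the nearest lay at a median of 12809.5 bp, against 20124 bp for other shared regions without a site.

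Smc1a peaks in shrinking regions were of ordinary strength. Their median score percentile was 43.1 in replicate 1 and 49.2 in replicate 2, against 41.4 and 46.9 for peaks in the other shared regions. In number of sites, 53 regions held 1 site, 12 held 2 and 1 held 4. The region with 4 sites was chr18:15404256-15407869. It was covered over 2324 and 1249 bp in KO and 3345 and 3614 bp in WT libraries, and the 1031 bp without a KO peak were all at a single end, which held the midpoint of 1 site.

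**Figure D5:**
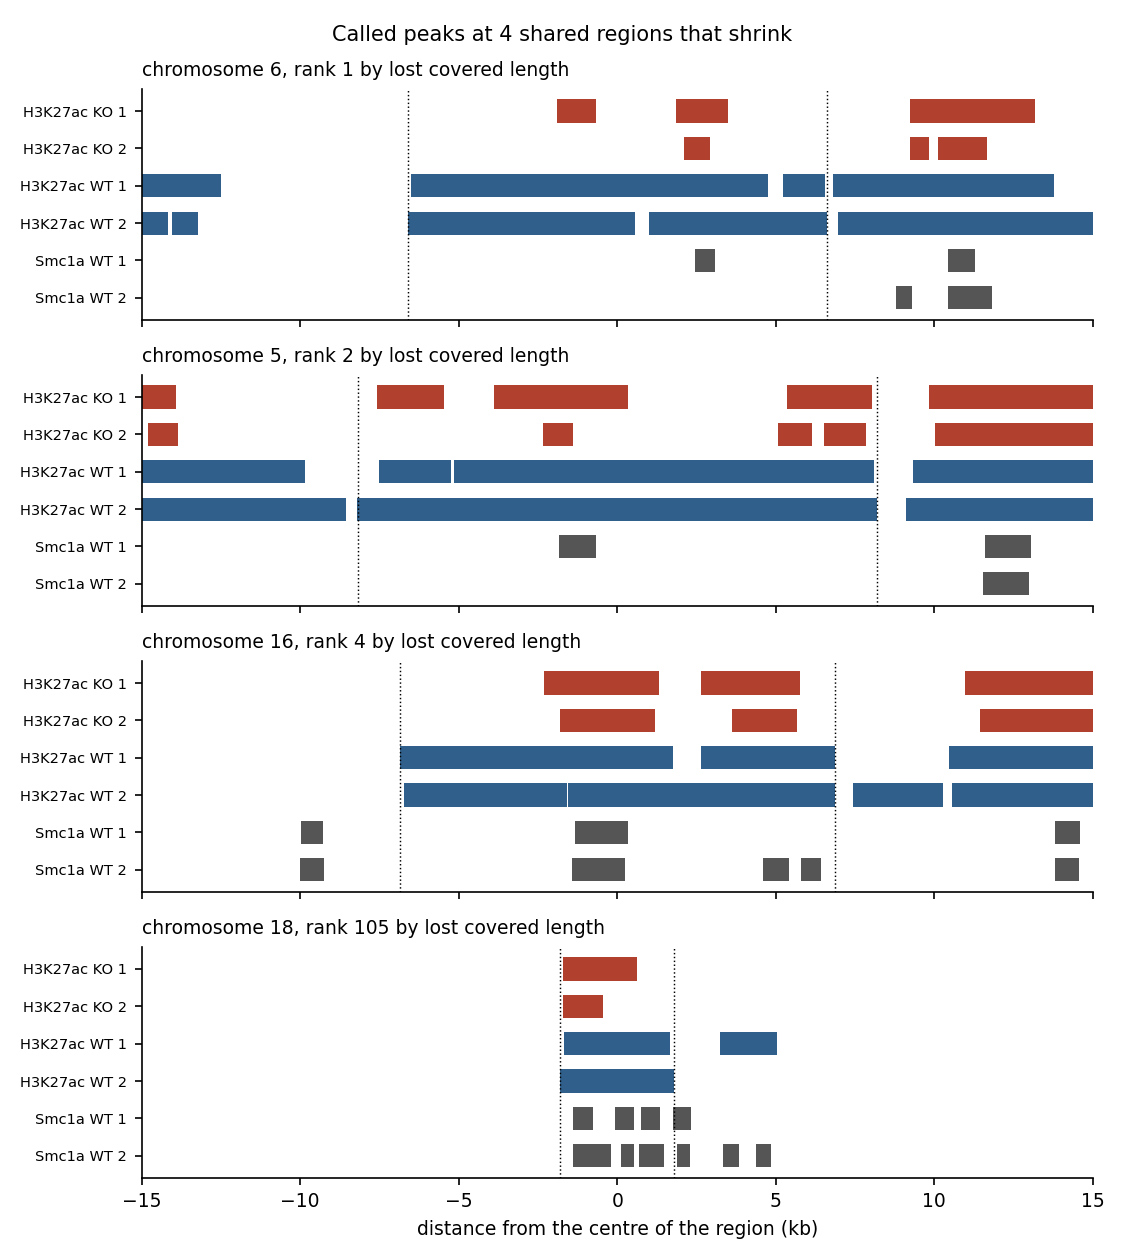
Peaks called in each library (rows: H3K27ac KO in red, H3K27ac WT in blue, Smc1a WT in grey) at 4 shrinking regions, by distance from the centre of the region (x axis, kb). Dotted lines bound the region, which has ranks 1, 2, 4 and 105 by WT minus KO covered length. KO peaks are short islands, stop short of an end that both WT libraries cover or, at rank 2, leave gaps between them.

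Shrinking regions lay close to other acetylated regions. Another shared region lay within 10000 bp of 119 of 182 (65.4%, 58.2 to 71.9), against 43.1% (42.2 to 44.0) of the other shared regions, a difference of 22.3 points. With the others weighted to the lengths of the shrinking regions the difference was 16.7 points, and shrinking regions had the higher share in each of 4 length bands. The regions that widen had a neighbour in 34.5% of cases (25.2 to 45.2), and the 101 regions lower in both libraries of replicate 2 in 56.4% (46.7 to 65.7). Both sets were shorter in the median than the shrinking regions, and their shares were not weighted for length.

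A region called in both WT and neither KO library (569 in all) lay within 10000 bp of 26 of the 182 shrinking regions (14.3%, 9.94 to 20.1), against 3.35% of the other shared regions. A region called in both KO and neither WT library (690 in all) lay near 0 of 182 (Wilson 95% interval 0 to 2.07%; a count of 0 allows up to 1.65% by the rule of 3 counts), against 2.03% of the other shared regions. The Wilson interval just includes the share of the other regions, while the limit of 1.65% lies below that share. The 2 limits thus disagree, and whether the shares differ is not settled with 182 regions. Among the 84 regions that widen the counts were 1 and 6. Regions called in WT alone or in KO alone come from the same libraries that chose the shrinking regions, so neither placement is independent of the rule. These shares were also not weighted for length.

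Shrinking regions were spread over the genome but partly grouped. With those within 10000 bp of each other joined, the 182 regions formed 167 groups, of which 157 held 1, 5 held 2 and 5 held 3 regions. Within 100000 bp they formed 151 groups, and the largest, with 4 regions each, were the Cux1 stretch and the span chr7:71117197-71289076. The chromosome 7 span held 10 shared regions, of which 4 shrank. In these 4 regions KO libraries covered 9745 and 8616 bp and WT libraries 15922 and 15671 bp. Regions of a group share a neighbourhood and are not separate observations. No other set of regions was grouped in this way, so whether the grouping exceeds that of shared regions in general was not tested. By chromosome, 22 lay on chromosome 1 (2.71% of its shared regions), 18 on chromosome 6 (2.67%) and 15 on chromosome 7 (1.98%), while chromosome X had 1 (0.308%) and chromosome 19 had 2 (0.533%).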

How the data were processed

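H3K27ac ChIP-seq peak lists of 2 KO and 2 WT libraries and Smc1a lists of 2 WT libraries were analysed, and the 5 input libraries were not analysed here. Reads had been aligned with Bowtie 0.12.8, with mm9 as the build, per the submitters' processing notes. The lists name their peaks in the style of MACS and hold 1 library each. Which version and settings called the peaks is not given in the sources used here. Each deposited peak has a start, an end and a score, which is the authors' own value and begins at 50. Coordinates are counted from 1.

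Intervals were merged and measured in Python 3.11.15 (pandas 2.3.3, numpy 2.4.6, scipy 1.17.1), with overlaps of at least 1 bp, and the functions were tested on simulated data. Bases covered by both WT and neither KO library are called lost, and those covered by both KO libraries kept. Shares have Wilson 95% intervals, which cover counting error only. The only test was an exact permutation test over the 4 libraries. The regions and lists were chosen with earlier results of these data known. Named regions were the 10 with the greatest WT minus KO mean difference, the 5 with the lowest ratio, 3 on each side of the threshold and the one with most Smc1a sites. Regions at Cux1, Rag1, Myb, Satb1, Runx1, Tcf7 and Ppm1h, and in groups on chromosomes 4, 6 and 7, beyond these were named after their values were seen. The gene lists and cell type markers planned for an mm9 annotation were not run.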

Additional observations from a re-analysis of the deposited data

How the results depend on the processing

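Of 60 alternatives over 5 results, 39 stayed within the range set for them, 21 moved and none changed sign. The range for the covered length was the SD of the KO libraries (2.89 Mb). It is wider than the difference itself, so the 8 alternatives that stayed there show little stability. Asking both WT libraries to cover at least 50% of the region removed none of the 182 regions, so that alternative could show no change. The 12 alternatives for the number of regions and the 11 for the position of the lost bases could not change sign. A ratio of 0.6 or 0.8 gave 88 or 411 shrinking regions by construction. The replicate block, with each KO library below 0.7 times the WT library of its number, gave 275. The numbers were not shown to pair the libraries, since the deviations of KO and WT libraries of a number correlated at 0.0624 over 12129 shared regions, which share their libraries. The block cannot alter the mean covered length difference (-2.00 Mb). When a library was left out, shared regions were redefined on the remaining lists, and the count depended on which library it was. Leaving out a library in turn gave more regions, since fewer lists must agree, from 355 without KO replicate 2 to 1159 without KO replicate 1. It moved the Smc1a difference between 5.15 and 14.8 points, the neighbour difference between 15.8 and 22.7 points, the share of regions with loss mostly at the ends between 95.1% and 98.3%, and the KO minus WT covered length between -4.22 and -0.151 Mb. The Smc1a difference was 26.1 points with the upper 75% of each list, 23.6 with equal numbers of peaks, 26.8 with merging within 1000 bp, 24.8 with Smc1a replicate 2 alone and 8.87 at equal lengths. The share mostly at the ends was 96.2%, 98.7% and 86.1% under the first 3 of these. The neighbour difference was 33.0 points at a ratio of 0.6. The cause of these moves was not tested beyond the construction named. Under the stricter score, equal numbers and wider merging, KO below WT kept the highest of the 6 counts. It gave 130 of 9314 (1.4%), 152 of 10602 (1.43%) and 187 of 11233 (1.66%) shared regions. The next pairing gave 69 (0.741%), 79 (0.745%) and 120 (1.07%). Depth is unknown, which limits every call of a missing stretch.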
